A study of Arabidopsis thaliana with 3 samples.

Results

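The LINE and SINE retrotransposon regions are the differentially methylated regions of the Arabidopsis thaliana genome whose listed repeats all bear names of LINE families (ATLINE, TA11, TSCL) or of SINE families (ATSINE, RathE). They numbered 219 of 4481 distinct regions (4.89%), with 151 LINE regions in 126 element copies and 68 SINE regions in 65 copies, and the remaining 4262 regions served as the background. The background includes 16 regions that listed a LINE beside another repeat. The level of 24-nt small RNAs was measured over each region by small RNA sequencing of total RNA from whole seedlings, 10 days old and kept in liquid MS medium with sucrose. There were 3 libraries: ddb2-3, with the insertion DsLoxHs195_05H, nrpd1a, with the insertion Salk_583051, and WT, labelled Col. With 1 library per genotype, differences have no replicate check, intervals cover counting error only, and every comparison is one of libraries. Levels are the authors' RPM, and the steps of the values gave scaling totals of 8345931 reads for ddb2-3, 1376239 for nrpd1a and 5913669 for WT. Which reads of a library these totals count is not given in the sources used here, and every ratio between libraries depends on them.

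LINEs and SINEs are retrotransposons without long terminal repeats. LINEs encode a reverse transcriptase and insert through an RNA intermediate, often leaving copies truncated at the 5' end with a run of A at the 3' end. SINEs are short, do not code for protein, derive from genes transcribed by RNA polymerase III and rely on the enzymes of LINEs. In plants RNA polymerase IV (Pol IV) transcribes such elements, RDR2 makes the transcripts double-stranded and DCL3 dices them to 24-nt siRNAs, which guide DNA methylation in the CG, CHG and CHH contexts. NRPD1 is the largest subunit of Pol IV, and DDB2 is the damage sensor of global genome repair, a branch of nucleotide excision repair. The question of the study, as its title gives it, was whether repair factors shape DNA methylation. The regions carry the name of a cytosine context and of a direction, hyper or hypo. Which genotypes were compared to define these classes is not given in the sources used here.

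The following sequences are those of the regions on which the results below turn: 2 loci nearly without siRNAs in ddb2-3 (TA11 and ATLINE1_6), the LINE region highest over WT by the naming rule (ATLINE1_4), the LINE and SINE regions with the highest WT level (ATLINE1A, and RathE1 of chromosome 3), and the SINE regions lowest (RathE3) and highest (RathE1 of chromosome 2) over WT by that rule. They are the plus strand of RefSeq's TAIR10.1 assembly, and capitals mark CG dinucleotides. The ATLINE1_6 sequence was chosen after its values were seen.
TA11, chr1:10363101-10363358: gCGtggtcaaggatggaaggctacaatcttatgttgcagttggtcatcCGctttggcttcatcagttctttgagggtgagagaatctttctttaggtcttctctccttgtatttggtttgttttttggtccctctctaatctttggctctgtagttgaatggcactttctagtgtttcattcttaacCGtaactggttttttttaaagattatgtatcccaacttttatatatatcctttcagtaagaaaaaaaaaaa
ATLINE1_6, chr2:2273901-2274100: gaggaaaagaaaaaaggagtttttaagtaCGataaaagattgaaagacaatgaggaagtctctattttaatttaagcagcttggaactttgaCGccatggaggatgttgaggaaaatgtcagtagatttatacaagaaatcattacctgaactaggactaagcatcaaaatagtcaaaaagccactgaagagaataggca
ATLINE1_4, chr2:18655301-18655400: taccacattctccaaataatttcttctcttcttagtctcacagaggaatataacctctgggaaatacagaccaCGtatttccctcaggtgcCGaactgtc
ATLINE1A, chr3:12353201-12353300: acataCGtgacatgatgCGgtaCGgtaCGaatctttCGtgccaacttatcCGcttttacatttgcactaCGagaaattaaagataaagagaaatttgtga
RathE3, chr5:7491001-7491100: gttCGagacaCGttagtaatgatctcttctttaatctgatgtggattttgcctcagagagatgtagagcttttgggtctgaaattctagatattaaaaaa
RathE1, chr2:8218001-8218100: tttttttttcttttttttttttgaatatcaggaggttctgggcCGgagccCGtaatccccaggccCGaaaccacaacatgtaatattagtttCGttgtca
RathE1, chr3:16770501-16770569: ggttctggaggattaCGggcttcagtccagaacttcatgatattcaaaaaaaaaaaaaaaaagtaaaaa
The TA11 region closed with a run of 11 A, the RathE1 region of chromosome 3 held a run of 17 A, and the RathE1 region of chromosome 2 a run of 12 T. The ATLINE1_6 region had 2 CG dinucleotides in 200 bp and the TA11 region 3 in 258 bp, against 7 in the 100 bp of the ATLINE1A region.

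SINE regions carried denser siRNAs than LINE regions in each library. Summed and divided by length, SINE regions had 45.4 RPM per 100 bp in ddb2-3, 0.593 in nrpd1a and 44.3 in WT. LINE regions had 10.5 RPM per 100 bp in ddb2-3, 0.136 in nrpd1a and 11.1 in WT, and the other regions 17.3 in ddb2-3, 0.580 in nrpd1a and 15.8 in WT. The median SINE region had 32.4 RPM in ddb2-3, none in nrpd1a and 29.9 RPM in WT. The median LINE region had 4.19 RPM in ddb2-3, none in nrpd1a and 4.73 RPM in WT. At least 10 RPM in WT was reached by 51 of the 68 SINE regions (75.0%), by 48 of the 151 LINE regions (31.8%) and by 39.3% of the other regions. All 219 regions had reads in both ddb2-3 and WT.

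**Figure D1:**
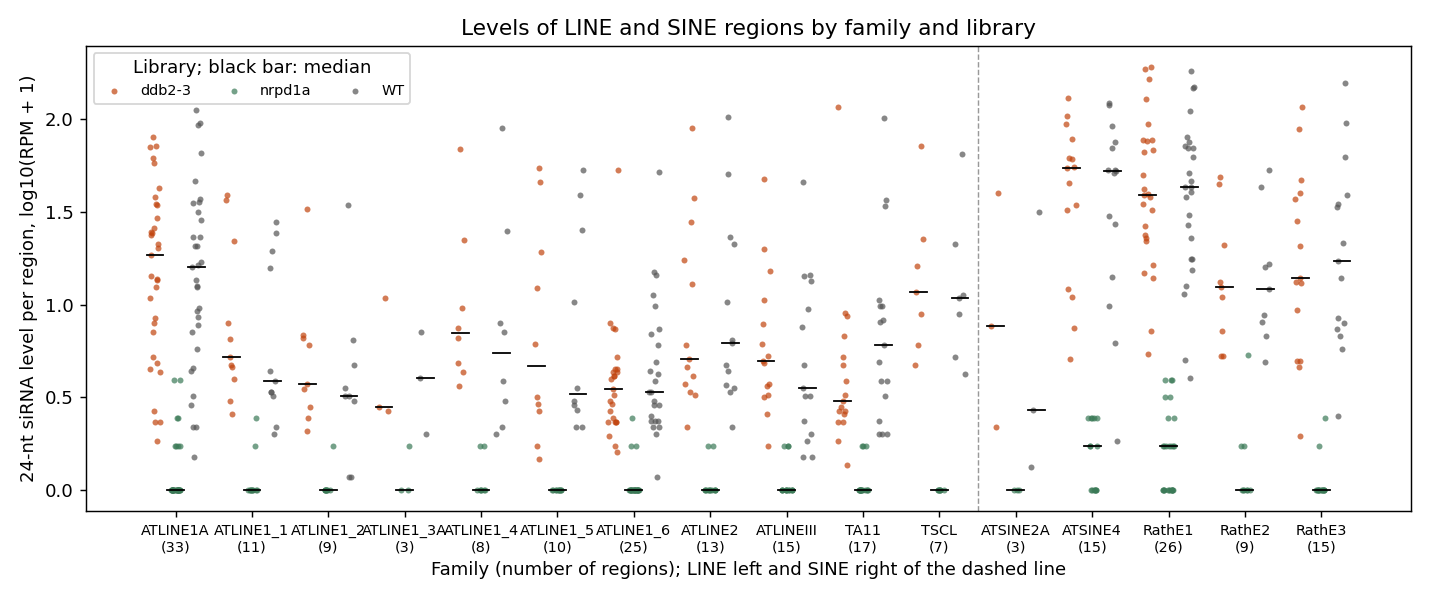
Level of 24-nt siRNAs in each LINE and SINE region on a log10(RPM + 1) axis, by family and library, with the median as a black bar. In ddb2-3 and WT the ATSINE4 and RathE1 regions sit highest, and nrpd1a stays at or near 0 in every family, its highest region at 4.36 RPM.

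Within each type a few families held most of the signal. Among SINEs, the 26 RathE1 regions summed to 1536 RPM in ddb2-3, 21.1 in nrpd1a and 1423 in WT, and the 15 ATSINE4 regions to 774 RPM in ddb2-3, 9.45 in nrpd1a and 763 in WT. Per 100 bp, RathE1 had 66.0 RPM in ddb2-3 and 61.2 in WT, while RathE2 had 19.0 RPM per 100 bp in both. Among LINEs, the 33 ATLINE1A regions summed to 764 RPM in ddb2-3, 11.6 in nrpd1a and 794 in WT, more than any other LINE family in these libraries. ATLINE1_6, with 25 regions, was sparse, at 3.05 RPM per 100 bp in ddb2-3 and 3.80 in WT. The 5 highest regions held 21.6% of the LINE sum in ddb2-3 and 24.2% in WT, and 27.1% of the SINE sum in ddb2-3 and 26.2% in WT.

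The highest LINE regions in WT came from 3 families. An ATLINE1A region 168 bp downstream of the glutamine dumper gene GDU6 (AT3G30725; chr3:12353201-12353300) had 79.3 RPM in ddb2-3, 2.91 in nrpd1a and 111 in WT, a ddb2-3 to WT ratio of 0.712 (95% interval 0.638 to 0.794). An ATLINE1A region in the pseudogene or transposon gene AT1G47910 (chr1:17660201-17660319) had 69.6 RPM in ddb2-3, 2.91 in nrpd1a and 94.9 in WT, a ratio of 0.734 (0.652 to 0.826). These regions shared 34 of their 24-mers, neither had a 24-mer found once in the genome, and the assignment of reads with several genomic hits is not given in the sources used here, so they may not be separate measurements. Another ATLINE1A region, in a non-coding exon of AT5G24990 (chr5:8611701-8611800), had 60.6 RPM in ddb2-3, no read in nrpd1a and 92.3 RPM in WT, a ratio of 0.657 (0.581 to 0.742). An ATLINE2 region 426 bp upstream of ftsh7 (AT3G47060; chr3:17332401-17332500), a gene for an FtsH-type protease, had 88.8 RPM in ddb2-3, 0.727 in nrpd1a and 102 in WT. The TA11 region 456 bp downstream of AT1G01180 (chr1:77301-77500) stood above WT, with 115 RPM in ddb2-3, 0.727 in nrpd1a and 100.1 in WT.

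The highest SINE regions in WT were RathE1, RathE3 and ATSINE4 copies next to genes. The RathE1 region 319 bp upstream of AT3G45680 (chr3:16770501-16770569), whose sequence is given above, had 186 RPM in ddb2-3, 2.91 in nrpd1a and 182 in WT, a ratio of 1.02 (0.945 to 1.11). A RathE1 region 1117 bp upstream of AT2G21465 (chr2:9197101-9197200) had 190.4 RPM in ddb2-3, 0.727 in nrpd1a and 146 in WT, a ratio of 1.30 (1.20 to 1.42). Another lay 600 bp upstream of NHX1 (AT5G27150; chr5:9552601-9552700), a gene for a vacuolar sodium/proton antiporter, and had 165 RPM in ddb2-3, 1.45 in nrpd1a and 149 in WT. The RathE3 region 256 bp downstream of AT5G22560 (chr5:7491001-7491100) lay below WT, with 116 RPM in ddb2-3, no read in nrpd1a and 156 RPM in WT, a ratio of 0.745 (0.680 to 0.817). The ATSINE4 region 1068 bp upstream of AT2G05910 (chr2:2260701-2260800) had 104 RPM in ddb2-3, 1.45 in nrpd1a and 121 in WT, a ratio of 0.856 (0.775 to 0.947).

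Set against WT, ddb2-3 had nearly the same summed level over both types, while the other regions were higher. SINE regions summed to 2949 RPM in ddb2-3 and 2878 in WT, a log2 ratio of 0.03 (0.01 to 0.06), but -0.16 relative to the median region, that is, with ddb2-3 divided by the median ddb2-3 to WT ratio of the series. LINE regions summed to 1967 RPM in ddb2-3 and 2067 in WT, a log2 ratio of -0.07 (-0.11 to -0.04), or -0.27 relative to the median region. The other regions had a log2 ratio of 0.14 (0.13 to 0.14), and the median ddb2-3 to WT ratio over all regions lay at 0.20 on the log2 scale. The LINE sum rested on 6 nested regions of 2 loci, and without them it was 1959 RPM in ddb2-3 and 1953 in WT, a log2 ratio of 0.0047 (-0.03 to 0.04). Fewer cells with siRNAs and fewer siRNAs per cell cannot be told apart in whole seedlings.

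Region by region, the share above WT was near that of the whole series, at 62.9% of LINE and 58.8% of SINE regions beside 63.4% of all regions. The median difference on the log2(RPM + 1) scale was 0.09 (0.03 to 0.21) for LINE regions, with 95 of 151 above WT, and 0.05 (-0.07 to 0.14) for SINE regions, with 40 of 68 above WT, beside 0.17 over all 4481 regions. Relative to the median region the LINE value turns to -0.06 and the SINE value to -0.14. At least 2-fold higher in ddb2-3 on that scale were 6 LINE and 2 SINE regions, where 5.22% of all regions passed that size, and at least 2-fold lower were 11 LINE and 0 SINE regions, where 1.67% did. The 11 lower LINE regions are 7.28% of the type, but only 5 of them lie outside the 6 nested regions. An exact binomial count test on the reads with Benjamini-Hochberg adjustment over all regions, which compares libraries and not genotypes, placed 20 LINE and 10 SINE regions above WT beside 19.3% of all regions, and 21 LINE and 5 SINE regions below WT beside 7.03% of all regions.

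**Figure D2:**
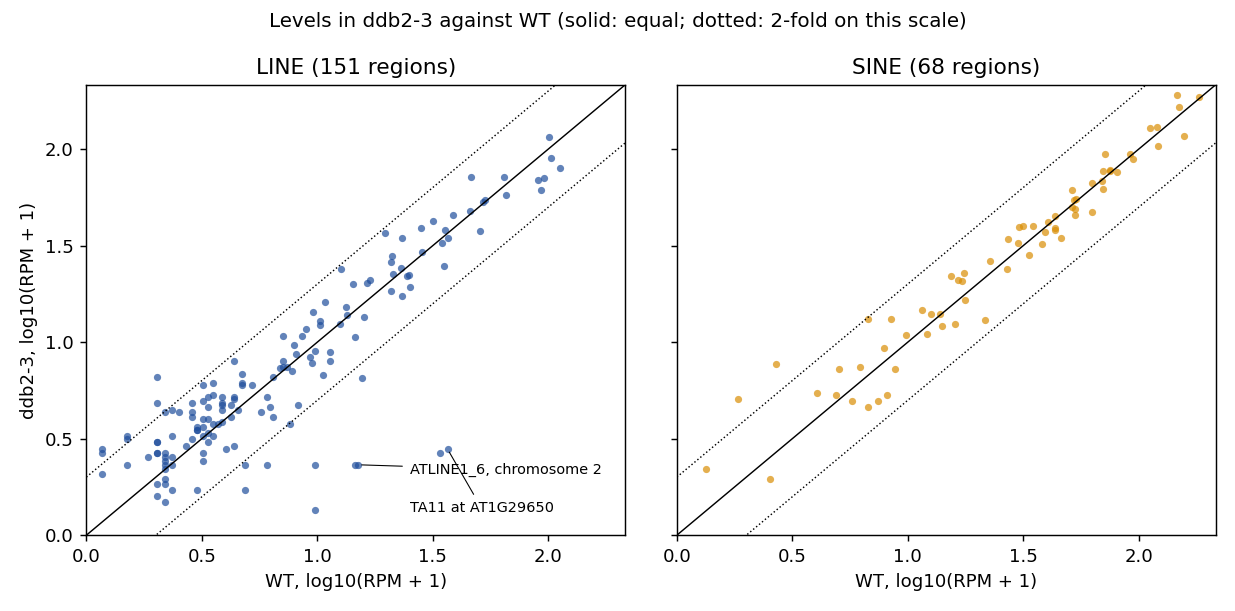
Level of each region in ddb2-3 against WT on log10(RPM + 1) axes for LINE (left) and SINE (right), with a solid line at equal levels and dotted lines at 2-fold. Most regions lie between the dotted lines, and the nested regions at the TA11 and ATLINE1_6 loci lie far below them, at 35.7 RPM or less in WT and 1.80 RPM or less in ddb2-3.

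At 2 LINE loci nearly all siRNAs were missing from the ddb2-3 library. The TA11 copy in the pseudogene or transposon gene AT1G29650 held 3 regions with a common start, of the CG-hypo, CHG-hypo and CHH-hypo classes. The longest (chr1:10363101-10363358) had 15 reads in ddb2-3, 0 in nrpd1a and 211 in WT, or 1.80, 0 and 35.7 RPM. It was 19.9-fold lower in ddb2-3 (11.8 to 36.1), and in nrpd1a the 95% interval allows up to 7.58% of WT. Its first 100 bp, the CG-hypo region, had 3 reads in ddb2-3 and 52 in WT, and the next 100 bp 11 reads in ddb2-3 and 144 in WT, so the loss ran along the whole sequence printed above. The ATLINE1_6 copy 1149 bp upstream of AT2G05920 (chr2:2273601-2274110) had 11 reads in ddb2-3, 2 in nrpd1a and 83 in WT, or 1.32, 1.45 and 14.0 RPM, 10.6-fold lower in ddb2-3 (5.65 to 22.2). All 11 ddb2-3 reads lay in the inner CHH-hypo region (chr2:2273901-2274100), which had 52 reads in WT, a ratio of 0.150 (0.071 to 0.291). The outer 310 bp had 0 reads in ddb2-3 and 31 in WT. In both loci every 24-mer was found once in the genome. The next lowest LINE regions had ratios of 0.185 to 0.418 on WT levels of 3.89 to 14.7 RPM.

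Another nested pair showed opposite signs within 1 element. The ATLINE1_1 copy in the pseudogene or transposon gene AT1G67626 had an inner CG-hypo region (chr1:25343801-25343969) with 46 reads in ddb2-3, 0 in nrpd1a and 87 in WT, a ratio of 0.375 (0.256 to 0.542). The other 200 bp of the enclosing CHG-hypo region (chr1:25343601-25343969) had 130 reads in ddb2-3, 0 in nrpd1a and 52 in WT, a ratio of 1.77 (1.27 to 2.49). The enclosing region as a whole came to 21.1 RPM in ddb2-3 and 23.5 in WT, a ratio of 0.897 (0.714 to 1.13), although only 26.6% of its 24-mers were found once in the genome. In the ATLINE2 pair of chromosome 3 (chr3:15860901-15861200) the outer 200 bp had 118 reads in ddb2-3 and 117 in WT, a ratio of 0.715 (0.549 to 0.931). By sign alone, of 15 LINE copies with at least 2 separate regions, 7 had all regions above WT, 0 had all below, and 8 had regions on both sides. Of all regions in the series, 63.4% were above WT. Some both-sided copies lay close to WT, such as the ATLINE1_6 copy at chr4:633501-636900 with values of -0.03 and 0.04. Whether separate regions of 1 copy differ beyond counting error was not tested. The range of log2 values within such a copy had a median of 0.49 and reached 1.42, in the ATLINE1_6 copy of chromosome 4 whose region in AT4G08262 (chr4:5209301-5209400) had 14 reads in ddb2-3 and 1 in WT.

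Of the regions at least 2-fold higher in ddb2-3, the ATLINE1_4 region in the pseudogene or transposon gene AT2G45230 (chr2:18655301-18655400) had the largest difference on the log2(RPM + 1) scale, 1.72. It had 47 reads in ddb2-3, 0 in nrpd1a and 6 in WT, or 5.63, 0 and 1.01 RPM, a ratio of 5.55 (2.37 to 15.9). A CHG-hypo ATSINE2A region upstream of ORP2B (AT4G12460; chr4:7390701-7390800), a gene for an oxysterol-binding protein, had 56 reads in ddb2-3, 0 in nrpd1a and 10 in WT, a ratio of 3.97 (2.01 to 8.72). The CHH-hyper region that adjoins it (chr4:7390801-7390900) had 325 reads in ddb2-3, 0 in nrpd1a and 180 in WT, a ratio of 1.28 (1.06 to 1.54). The only other ATSINE2A region, downstream of RDR2 (AT4G11130; chr4:6785001-6785100), whose product makes Pol IV transcripts double-stranded, had 10 reads in ddb2-3, 0 in nrpd1a and 2 in WT, and its interval of 0.755 to 33.3 includes 1. An ATLINEIII region upstream of NPC4 (AT3G03530; chr3:845414-845500), a phospholipase C gene, had 32 reads in ddb2-3, 1 in nrpd1a and 6 in WT, a ratio of 3.78 (1.56 to 11.1). The other regions past this size had 1 to 5 reads in WT, and 2 of them had higher ratios on a single WT read: 10.6 (1.64 to 447) for ATLINE1_2 at chr3:15177201-15177300 and 9.92 (1.51 to 419) for ATLINE1_6 in AT4G08262.

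**Figure D3:**
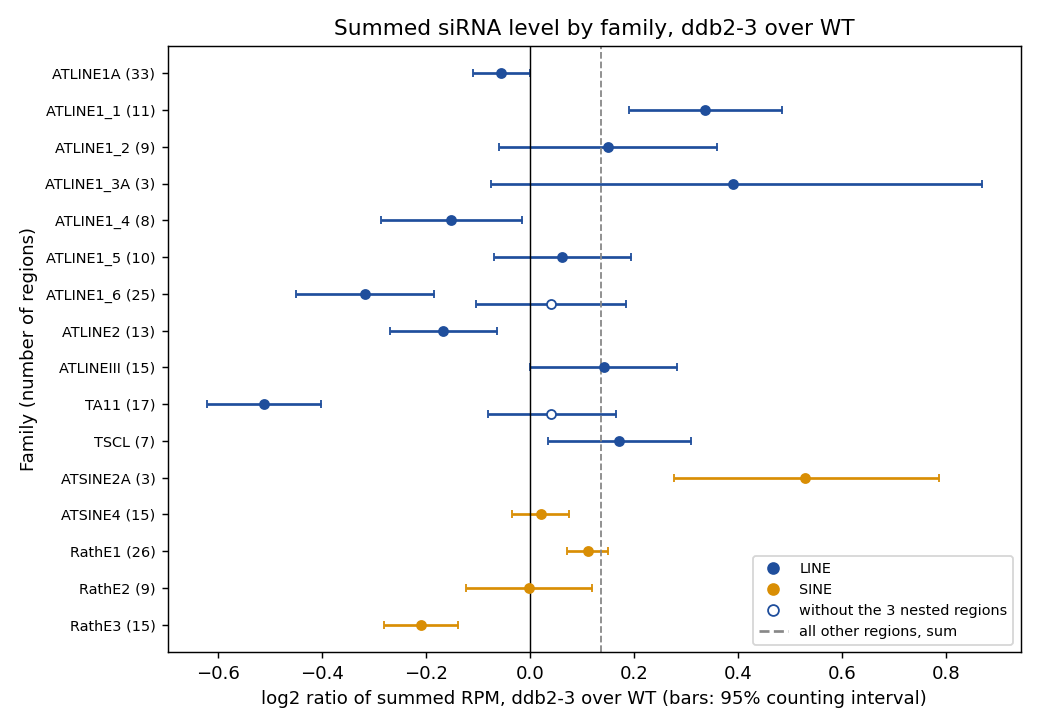
Log2 ratio of summed RPM, ddb2-3 over WT, for each family with its 95% counting interval, and open points without the nested regions of TA11 and ATLINE1_6. Both families move to 0.04 without them, ATLINE1_1 and ATSINE2A lie highest among families whose interval leaves out 0, RathE3 lies at -0.21, and the dashed line marks the other regions at 0.14.

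By family the summed ratios spread to both sides of WT. ATLINE1_1 was higher in ddb2-3, with 125 RPM against 99.3 in WT, a log2 ratio of 0.34 (0.19 to 0.48), and of 0.14 relative to the median region, and 9 of its 11 regions were above WT. The 11 regions lay in 8 copies. Among those above WT was a region 786 bp upstream of CYP71B19 (AT3G26170; chr3:9576001-9576100), a cytochrome P450 gene, with 35.8 RPM in ddb2-3, none in nrpd1a and 18.6 in WT. Another, in AT1G58020 (chr1:21450201-21450300), had 37.9 RPM in ddb2-3, 1.45 in nrpd1a and 27.1 in WT. No 24-mer of the AT1G58020 region was found once in the genome, so its reads may not be its own. The other ATLINE1_1 regions had 1.56 to 21.1 RPM in ddb2-3 and 1.01 to 23.5 RPM in WT. RathE1 was higher by 0.11 (0.07 to 0.15), but -0.09 relative to the median region, with 17 of 26 regions above WT, and TSCL by 0.17 (0.03 to 0.31), but -0.03 on that scale, with 6 of 7 above. The intervals of ATLINE1_2, ATLINE1_3A, ATLINE1_5, ATSINE4 and RathE2 include 0, with ATSINE4 at 0.02 and RathE2 at -0.0029, and that of ATLINEIII at 0.14 begins at 0.00020. TA11 at -0.51 (-0.62 to -0.40) and ATLINE1_6 at -0.32 (-0.45 to -0.18) both came to 0.04 without their nested regions, with 8 of 17 and 13 of 25 of all their regions above WT. The intervals of ATLINE2 at -0.17 (-0.27 to -0.06), ATLINE1_4 at -0.15 (-0.29 to -0.015) and ATLINE1A at -0.06 (-0.11 to -0.0010) lay below 0, although 7 of 13, 6 of 8 and 19 of 33 of their regions were above WT.

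RathE3 was the SINE family whose interval lay below WT, with 431 RPM in ddb2-3, 2.18 in nrpd1a and 499 in WT, a log2 ratio of -0.21 (-0.28 to -0.14), and 5 of 15 regions above WT. The region near AT5G22560 alone held 116 RPM of that sum in ddb2-3 and 156 RPM in WT. A region 97 bp upstream of ESE2 (AT2G25820; chr2:11014601-11014692), a gene for an ERF-type transcription factor, had 46.3 RPM in ddb2-3, none in nrpd1a and 61.6 in WT, a ratio of 0.751 (0.649 to 0.869). A CHH-hypo region upstream of AT2G01913 (chr2:423001-423100) had 12.1 RPM in ddb2-3, none in nrpd1a and 20.6 in WT, a ratio of 0.587 (0.446 to 0.770). Against this trend the region in an intron of GH9C3 (AT4G11050; chr4:6748801-6748900), a glycosyl hydrolase gene, had 12.2 RPM in ddb2-3, none in nrpd1a and 7.44 in WT, a ratio of 1.64 (1.14 to 2.40). No RathE3 region passed the 2-fold size in either direction.

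Summed ratios of LINE regions differed between methylation classes. The 53 CHG-hyper LINE regions summed to 389 RPM in ddb2-3 and 321 in WT, a log2 ratio of 0.28 (0.20 to 0.36), and 0.08 relative to the median region, with 41 above WT (77.4%). The CHG-hyper regions among the others stood higher, at 0.37 (0.36 to 0.39), with 77.5% above WT. The 42 CHG-hypo LINE regions had 531 RPM in ddb2-3 and 668 in WT, a log2 ratio of -0.33 (-0.39 to -0.27), and -0.23 (-0.30 to -0.17) without the nested regions, where the CHG-hypo regions among the others had 0.25 (0.23 to 0.27). Single CHG-hypo LINE regions did not share that direction: 23 of 42 (54.8%) were above WT, against 65.1% of the others, and the median difference on the log2(RPM + 1) scale came to 0.014 (-0.27 to 0.17), which turns to -0.15 once ddb2-3 is divided by the median ratio. The CHG-hypo LINE regions in AT1G47910, in AT5G24990 and upstream of AT2G14060, with 89.1 to 94.9 RPM in WT, were all below WT. The 4 CG-hypo LINE regions had 9.47 RPM in ddb2-3 and 39.6 in WT, a log2 ratio of -2.06 (-2.45 to -1.69), and all 4 lay inside longer regions of the nested sets. CHH-hypo LINE regions were at -0.31 (-0.41 to -0.20), which becomes -0.03 (-0.14 to 0.09) without the nested regions, and CHH-hyper LINE regions at 0.08 (0.03 to 0.14), but -0.12 relative to the median region, beside 0.08 (0.07 to 0.09) for the CHH-hyper regions among the others. SINE regions had 0.12 (0.08 to 0.15) over 36 CHH-hyper regions and -0.12 (-0.18 to -0.06) over 16 CHH-hypo regions. Relative to the median region these values were -0.08 and -0.32. The CHH-hypo sums, 718 RPM in ddb2-3 and 781 in WT, include the RathE3 region near AT5G22560, with 116 RPM in ddb2-3 and 156 in WT. The 10 CHG-hyper SINE regions had 0.20 (0.08 to 0.32), with 8 above WT, and the 9 CHG-hypo SINE regions -0.0016 (-0.08 to 0.08), with 3 above. Relative to the median region these came to -0.0009 and -0.20. The others had 0.08 in the CHH-hyper and -0.02 (-0.03 to -0.01) in the CHH-hypo class. No SINE region belonged to a CG class.

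Near the centromeres the summed levels of LINE and SINE regions were close to WT in ddb2-3, where that of the other regions was higher. Pericentromeric means within 3 Mb of the centre of the centromere. These centres were rounded positions set by hand, since the sources used here do not give them. In this zone lay 78 LINE (51.7%) and 24 SINE regions (35.3%), against 60.3% of the other regions. Pericentromeric LINE regions had a log2 ratio of -0.02 (-0.06 to 0.03), or 0.03 (-0.02 to 0.08) without the nested regions, and pericentromeric SINE regions 0.04 (-0.01 to 0.09), where the other pericentromeric regions had 0.31 (0.30 to 0.32). Relative to the median region the pericentromeric values were -0.21 for LINE and -0.16 for SINE. Region by region the pericentromeric LINE set lay above WT, with a median difference of 0.20 (0.02 to 0.31) on the log2(RPM + 1) scale, or 0.04 relative to the median region, and 51 of 78 above WT (65.4%). Pericentromeric SINE regions had a median of 0.12 (-0.15 to 0.34), but -0.08 relative to the median region, with 15 of 24 above WT (62.5%), and the others 0.31 (0.30 to 0.34), or 0.15 on that scale, with 73.2% above WT. In the arms the values were -0.13 (-0.18 to -0.08) for LINE, -0.02 (-0.07 to 0.03) without the nested regions, 0.03 (-0.0020 to 0.07) for SINE and -0.05 (-0.06 to -0.05) for the others. Whether these differences exceed the spread between libraries of a genotype was not tested.

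**Figure D4:**
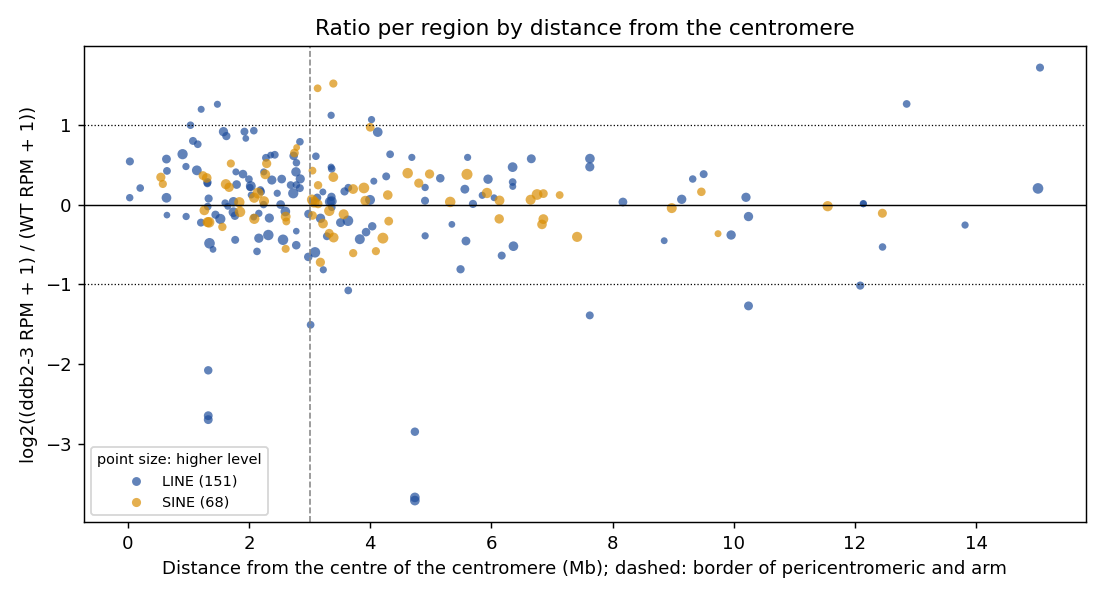
Difference between ddb2-3 and WT on the log2(RPM + 1) scale for each LINE and SINE region, by distance from the centre of its centromere in Mb, with the dashed line at 3 Mb and dotted lines at 2-fold. The centres are rounded positions set by hand. Regions on both sides of the dashed line spread around 0, and the nested regions form the lowest points, down to -3.71.

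The elements lay in different surroundings. Of the LINE regions 87 (57.6%) were in pseudogenes or transposon genes of the RefSeq annotation, against 0 SINE regions and 31.6% of the others. Within 2 kb of a protein-coding gene were 47 SINE regions (69.1%), 28 of them upstream, against 46 LINE regions (30.5%) and 33.1% of the others. The 28 upstream SINE regions had 66.1 RPM per 100 bp in ddb2-3 and 65.7 in WT, a log2 ratio of 0.01 (-0.03 to 0.05). The 5 LINE regions in non-coding exons of genes had 115 RPM in ddb2-3 and 152 in WT, with 0 of 5 above WT, and AT5G24990 held 60.6 of that sum in ddb2-3 and 92.3 in WT. In coding exons lay 3 SINE regions, ATSINE4 copies in AT1G52110 and AT2G04066 and a RathE2 copy in AT5G44270, with a summed log2 ratio of 0.07 (-0.07 to 0.20). CHH classes held 76.5% of the SINE regions, 35.1% of the LINE regions and 56.2% of the others.

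The sequences of these regions were less repeated than those of the others. At least 90% of the 24-mers were found once in the genome in 62.9% of LINE, 54.4% of SINE and 15.06% of the other regions. Families differed, with 93.3% of RathE3 but 26.9% of RathE1 and 42.4% of ATLINE1A regions passing that share. In those with such unique sequence the SINE sum was at -0.07 (-0.11 to -0.02). A 24-mer in common with another separate member was found in 11 LINE and 19 SINE regions, with up to 34 shared by a LINE pair, the ATLINE1A regions near GDU6 and in AT1G47910, and up to 16 by a SINE pair. CG dinucleotides were denser in SINE regions, at 4.24 per 100 bp, against 2.74 in LINE regions and 2.54 in the others. A run of 8 A or 8 T was found in 16 SINE (23.5%), 11 LINE (7.28%) and 320 other regions (7.51%), and in regions of exactly 100 bp in 5.26% of SINE, 1.79% of LINE and 5.72% of other regions. The box B consensus of Pol III promoters, searched on both strands, occurred in 1 SINE region, a RathE1, in 0 LINE regions and in 2 others, or 3 of all 4481 regions. A run of 8 GA units or its complement occurred in 0 LINE and SINE regions and in 16 others.

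In nrpd1a almost all siRNAs of both types were absent from the library. LINE regions kept 1.23% of the WT level (0.86 to 1.71), on 35 reads, and SINE regions 1.34% (1.002 to 1.75), on 53 reads, where the other regions kept 3.67% (3.56 to 3.79). That last sum rests in part on few regions: of 2959 RPM in nrpd1a the highest region held 463. Above WT in nrpd1a were 32 of the other regions. No read was found in 126 of 151 LINE regions and in 41 of 68 SINE regions, or 83.4% of LINE and 60.3% of SINE regions, beside 77.1% of the others. At least 2-fold lower were 141 LINE and 66 SINE regions, where 92.9% of all regions were, and 0 LINE and SINE regions were at least 2-fold higher, where 0.246% were. By the count test 89 LINE and 64 SINE regions were below WT beside 71.3% of all regions, and 0 were above it beside 0.246%. A single nrpd1a read weighed 0.727 RPM, so 3 reads, 2.18 RPM, set the floor. With lower levels raised to 3 reads and no pseudocount, 76 LINE and 61 SINE regions were at least 2-fold lower. The share of all regions at that floor is not given here. Where WT was high enough for 3 reads to fall under 10% of it, all 29 LINE regions and 38 of 39 SINE regions (97.4%) were under 10%, beside 911 of 944 other regions (96.5%).

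**Figure D5:**
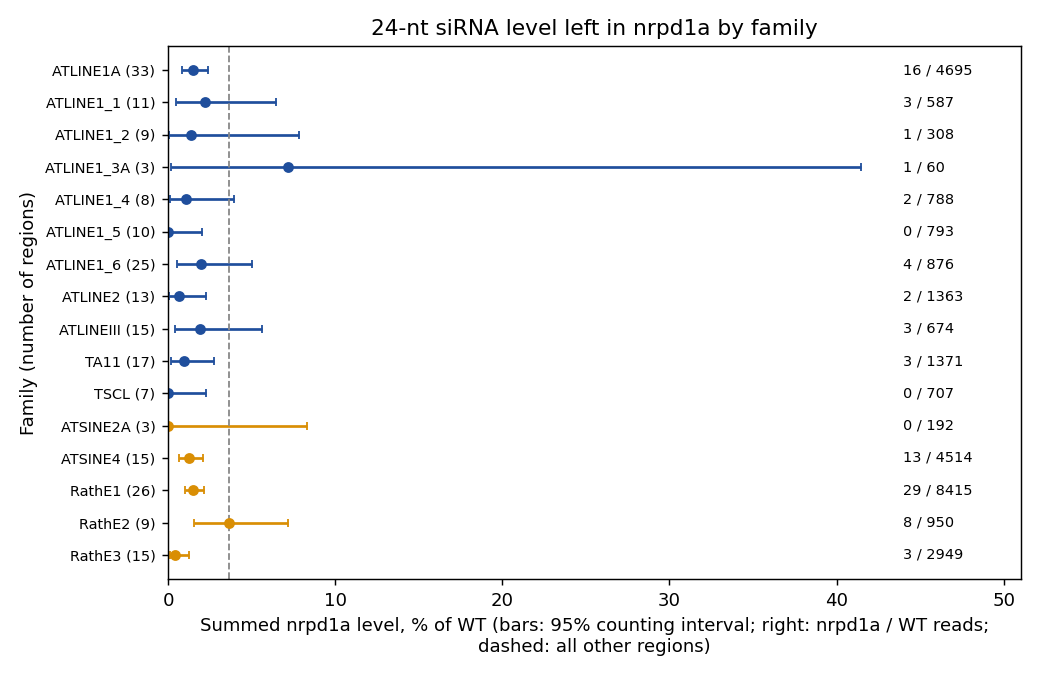
Summed nrpd1a level as a percent of WT by family, with 95% counting intervals, reads of nrpd1a and WT at the right, and the other regions at 3.67% as a dashed line. All families but ATLINE1_3A, which had 1 nrpd1a read against 60 in WT, lie at or under 3.67%. The sum of the other regions, 2959 RPM in nrpd1a, includes a region of 463 RPM.

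The loss in nrpd1a held for each family. ATLINE1_5 had no nrpd1a read over its 10 regions and 134 RPM in WT, which allows up to 2.004% by the interval, and TSCL none over 7 regions with 120 RPM in WT, which allows up to 2.25%. RathE3 kept 0.44% (0.09 to 1.28), ATSINE4 1.24% (0.66 to 2.12), RathE1 1.48% (0.99 to 2.13) and RathE2 3.62% (1.56 to 7.16). The tightest bounds came from regions with high WT levels. The 95% interval allows up to 1.72% of WT for the RathE3 region near AT5G22560 and up to 2.91% for the ATLINE1A region in AT5G24990. For an ATSINE4 region 317 bp upstream of AT1G59470 (chr1:21853701-21853800), with 119 RPM in WT, it allows up to 2.26%. For the TSCL region 162 bp upstream of AT4G02860 (chr4:1270701-1270800), with 63.8 RPM in WT, it allows up to 4.23%. An ATLINE1_4 region upstream of AT2G14060 (chr2:5917901-5918000) had 68.2 RPM in ddb2-3, 1 read or 0.727 RPM in nrpd1a and 89.1 RPM in WT.

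Even the regions with the most nrpd1a reads held no more than 6 of them. The RathE2 region in the coding exon of AT5G44270 (chr5:17833701-17833800) had 43.9 RPM in ddb2-3, 4.36 in nrpd1a and 42.3 in WT, and at 10.3% of WT (3.75 to 22.8) it was the exception among those 39 SINE regions. RathE1 regions on chromosomes 1 and 3 had 4 nrpd1a reads each: chr1:11204501-11204600 with 128 RPM in ddb2-3, 2.91 in nrpd1a and 111 in WT, and chr3:15784501-15784600, in an intron of AT3G43990, with 65.8 RPM in ddb2-3, 2.91 in nrpd1a and 61.9 in WT. The ATLINE1A regions near GDU6 and in AT1G47910 had 4 nrpd1a reads each as well, and they share sequence. At the ATLINE1_6 locus upstream of AT2G05920 the level was 1.32 RPM in ddb2-3 and 1.45 RPM in nrpd1a against 14.0 RPM in WT, with only 11 and 2 reads behind the mutant values. These reads lay in different parts of the locus. Both nrpd1a reads fell in the first 200 bp, which had 0 reads in ddb2-3 and 3 in WT. The rest (chr2:2273801-2274110) had 11 reads in ddb2-3, 0 in nrpd1a and 80 in WT.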

How the data were processed

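The authors deposited, for each library, 6 tables of 24-nt siRNA levels over differentially methylated regions, in RPM summed per region, per the file headers. The tools named in the submitters' processing notes are CASAVA 1.8.2, Bowtie and bedtools, with the TAIR10 build. How reads with several genomic hits were treated is not given in the sources used here. The 6 classes were pooled to distinct regions by coordinates. RPM values were divided by their step in each library, and 100.0% of the values came out as whole reads within 0.1 read. Members were chosen by repeat name whatever the case of its letters. Ratios have exact binomial (Clopper-Pearson) 95% intervals on these reads, and medians binomial order-statistic intervals over regions, which are not replicates. Reads in overlapping regions count in each, and reads counted at several copies are not independent, so intervals of sums are too narrow. Regions were counted at 2-fold on log2(RPM + 1), among those that reached 1 RPM in any library, which understates differences of weak regions. "Relative to the median region" means ddb2-3 divided by the median ddb2-3 to WT ratio, 1.15. Genes and sequences came from RefSeq TAIR10.1, where 327 of 334 gene entries of the deposited tables (97.9%) overlapped the gene of that name.

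Named regions were, per type, the 5 highest in WT, the 5 highest and lowest ddb2-3 to WT ratios among members at or above the type's median level, the 5 highest nrpd1a levels, the 5 lowest upper bounds of nrpd1a and all ATLINE1_1 regions. Others were chosen after their values were seen, among them the 2-fold regions below the type's median level, the rest of the nested sets and the regions near AT2G01913, GH9C3, RDR2 and in exons. Members, lists and alternatives were chosen with earlier results of these data known. The scripts were tested on simulated data and used Python 3.11.15, numpy 2.4.6, pandas 2.3.3, scipy 1.17.1 and matplotlib 3.10.9. The genotypes and the tissue were taken from the labels and were not checked against transcripts here.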

Additional observations from a re-analysis of the deposited data

How the results depend on the processing

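Depth limits nrpd1a most, since 3 reads are 2.18 RPM there, against 0.359 RPM in ddb2-3 and 0.507 RPM in WT, and regions of few RPM cannot show a loss. No paired analysis was possible because each genotype had 1 library, and for the same reason no replicate could be left out. Of 142 alternative values for 16 results under 14 alternatives, 97 were counted as the same, 39 as moved and 6 as reversed. The reversed values changed the sign of a result whose own interval left out 0. LINE near centromeres, SINE arms, SINE near centromeres and the SINE median had intervals that included 0. Their changes of sign, given below, were counted as moved or the same. The nrpd1a sums kept direction and size under every alternative run.

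Dividing ddb2-3 by the median ratio put the LINE sum at -0.27, LINE arms at -0.33, LINE near centromeres at -0.21 and the LINE median at -0.056. It put the SINE sum at -0.16, SINE arms at -0.17, SINE near centromeres at -0.16 and the SINE median at -0.14. The LINE median and all of these SINE values changed sign. With members that overlap no other region the LINE sum changed sign to 0.018 and LINE near centromeres to 0.042. LINE arms were at -0.0059, and 4 LINE regions were lower in ddb2-3. Keeping the longest of overlapping members gave a LINE sum of -0.023, LINE arms at -0.059 and 6 lower. Without the 6 nested TA11 and ATLINE1_6 regions the LINE sum was 0.0047, a change of sign, LINE arms -0.023 and 5 lower. With at least 90% unique 24-mers LINE arms were at -0.25, and LINE near centromeres changed sign to 0.069. The SINE sum changed sign to -0.067, SINE arms to -0.079 and SINE near centromeres to -0.027. Over these fewer members, 3 LINE regions were higher in ddb2-3, and 89 LINE and 36 SINE regions were lower in nrpd1a. Without the highest LINE region the LINE value near centromeres changed sign to 0.034. With at least 10 RPM in WT the LINE median changed sign to -0.043, 0 LINE and 0 SINE regions were higher and 5 LINE lower in ddb2-3, and 48 LINE lower in nrpd1a. A pseudocount of 0.5 gave 10 LINE and 4 SINE regions higher. A floor of 3 reads with no pseudocount gave 17 LINE and 4 SINE regions higher and 76 LINE lower in nrpd1a. The count test gave 20 LINE and 10 SINE higher, 21 LINE and 5 SINE lower in ddb2-3, and 89 LINE lower in nrpd1a. ATSINE names alone gave 0.12 for SINE arms, -0.048 near centromeres (a change of sign) and 16 lower in nrpd1a. LINE near centromeres also changed sign to 0.019 with the border at 2 Mb, 0.014 with the longest members and 0.032 without the nested regions. SINE near centromeres changed sign to -0.0019 with the border at 2 Mb, and the SINE median to -0.072 with unique 24-mers. The 3 alternatives on the longest member, the 6 nested regions and ATSINE names were chosen after seeing the data. Except where members or counts were fewer by construction, the cause was not tested.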
